A study of Rattus norvegicus with 15 samples.

Results

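The regenerating liver of chronically ethanol-fed rats was followed on 7 of the 15 microRNA (miRNA) arrays of the study, chosen by the labels as all arrays of the ethanol diet (EtOH). 3 of them hold liver removed at partial hepatectomy (PHx), the surgical removal of most of the liver, and are called before PHx. The other 4 hold the remnant liver 1, 6, 12 and 24 h after PHx, with 1 array at each time. Each array was loaded with RNA pooled from 4 animals, and by the animal identifiers the 1, 6 and 12 h pools hold the same 4 animals before and after PHx. The 4 EtOH pools list 15 distinct identifiers, because the 1 h and 6 h pools share 1 identifier. Both of those pools were sampled as remnant liver, at different times, so the shared identifier may be an error in the labels. The number of distinct animals is therefore uncertain. The partner of the 24 h pool before PHx was not analysed here, so that pool was compared with the mean of the 3 arrays before PHx. The other 8 arrays are from rats pair-fed a carbohydrate control diet (CHO), with 4 pools before PHx and 1 pool at each of the same 4 times after it. All rats of both diets had the same operation, and no genotype, strain, age or sham operation is given in the sources used here. The question is which miRNAs change, and when, once an ethanol-adapted liver starts to regenerate.

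After PHx the quiescent cells of the remnant are primed by cytokines and growth factors within hours and enter DNA synthesis at about the end of the first day in the rat, hepatocytes before the other liver cells. Chronic ethanol feeding is known to delay or weaken this response. MiRNAs are short RNAs that pair through bases 2 to 8, the seed, with sites in messenger RNAs and lower their output. Among them miR-21 and miR-221 are known for promoting hepatocyte proliferation, the miR-17-92 cluster for its link to E2F and MYC and to entry into S phase, and miR-34a for its link to p53 and cell cycle arrest. In bulk liver, fewer cells of a type and less RNA per cell cannot be told apart.

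The mature sequences of the miRNAs that carry the results are given from RefSeq with their positions on build GRCr8, 5′ to 3′, with the seed in capitals. All 16 names looked up were matched. The first 4 share the seed AAAGUGC and the next 2 the seed GUGCAAA, so that members of 1 seed group can bind the same sites even where they come from different loci.
miR-20a: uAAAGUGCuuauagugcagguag
miR-17: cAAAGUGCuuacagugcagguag
miR-106b: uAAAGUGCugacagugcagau
miR-93: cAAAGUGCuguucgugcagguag
miR-19a: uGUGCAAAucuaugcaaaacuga
miR-19b: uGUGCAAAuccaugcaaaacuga
miR-21: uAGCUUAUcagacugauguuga
miR-221: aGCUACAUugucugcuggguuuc
miR-199a-5p: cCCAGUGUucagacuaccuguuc
miR-199a-3p: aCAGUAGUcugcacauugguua
MiR-17 (chr15:98587861-98587883), miR-19a (chr15:98588179-98588201), miR-20a (chr15:98588318-98588340) and miR-19b (chr15:98588486-98588508) lie next to each other on the plus strand, as the miR-17-92 cluster. The same mature miR-17 and miR-19b are also listed at a second locus on chromosome X, and an array cannot tell the loci apart. MiR-106b (chr12:22157103-22157123) and miR-93 (chr12:22156894-22156916) lie on the minus strand inside Mcm7, a gene of the replication licensing complex. MiR-17 and miR-20a differ at 2 of 23 bases and miR-19a and miR-19b at 1 of 23, so cross-hybridisation between them is possible on such arrays. MiR-21 lies at chr10:71902653-71902674 on the minus strand and miR-221 at chrX:6023246-6023268 on the plus strand. The arms of miR-199a, at chr13:77116255-77116277 and chr13:77116294-77116315, come from 1 hairpin inside Dnm3.

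Signals are given on a linear scale after each array was brought to a common 75th percentile. A scaled signal of 9.61 is the floor below which no level is read. Of 350 miRNAs on the array, 108 to 130 were detected on the EtOH arrays, and 134 were detected on at least 3 of all 15 arrays and tested. The array before PHx of the 12 h pool stands apart: spots of 1 probe varied by a median of 34.0% there against 7.77% to 9.09% on the other 14 arrays, it had the lowest 75th percentile before scaling (236.5 against up to 454.6 among EtOH arrays), and it had the fewest detected miRNAs. It differed from the other EtOH arrays before PHx by a median of 0.247 and 0.235 log2 units per miRNA, while those differed from each other by 0.136. The tissue label was borne out by miR-122, the most abundant miRNA of hepatocytes, at 33470 to 39200 before and 35820 to 44010 after PHx. With 1 array per time, the error of each change comes from the spread among the 3 EtOH and 4 CHO arrays before PHx, and the lone arrays are assumed to vary as those do. P-values therefore rest on pools, not on animals.

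The called changes were all upward and came mainly at 12 and 24 h. Tested with limma and Benjamini-Hochberg adjustment over the 134 miRNAs at 0.05, 0 miRNAs changed at 1 h, 2 rose at 6 h, 8 rose at 12 h and 10 rose at 24 h against the mean of the arrays before PHx. These are 0%, 1.49%, 5.97% and 7.46% of the tested miRNAs. Both calls at 6 h, miR-30c-1* and miR-672, are of miRNAs at the floor on every array before PHx, whose p-values have no meaning for want of any spread. Without these 2, a setting chosen after seeing the data, 132 miRNAs gave 0 calls at 6 h, the same 8 at 12 h and 11 at 24 h, where miR-322 (adjusted p 0.135) was lost and miR-19a (0.0459) and miR-19b (0.0429) were added. None fell at any time in the fit over all groups: at an unadjusted p under 0.05, 2 were higher and 1 lower at 1 h, 15 and 1 at 6 h, 14 and 0 at 12 h and 17 and 3 at 24 h. The 4 comparisons share the same arrays before PHx and are not independent of each other. MiR-20a, miR-17, miR-21, miR-221, miR-223 and miR-345-5p passed at both 12 and 24 h, the arms of miR-199a at 12 h, and miR-106b, miR-350, miR-29b and miR-322 at 24 h. Without the array before PHx of the 12 h pool, miR-20a and miR-17 were left at each of 12 and 24 h. With the slide as a block, miR-20a was left at 12 h and miR-20a and miR-21 at 24 h. Within the slide that held the 12 and 24 h pools, where each comparison is of single EtOH arrays, 0 passed at either time. The 12 h array was also set against the 1 array before PHx of its own pool. That fit has no pool term, and its error comes from the 4 CHO arrays before PHx alone. There 6 rose and 1 fell at 12 h. Of the 8 calls, 4 passed there too (miR-20a, miR-17, miR-21 and miR-345-5p), and miR-199a-3p (adjusted p 0.0654), miR-199a-5p (0.115), miR-221 (0.0623) and miR-223 (0.135) did not. The other 3 were miR-130a (log2 0.73) and miR-7a (1.08), which rose, and miR-30a (-0.34), which fell. All 3 were set against the array with the wide spot spread, where miR-7a was at the floor. Much of the error estimate comes from the CHO arrays before PHx: on the EtOH arrays alone 0 passed at 12 or 24 h, and without CHO before PHx replicates 1, 2 and 4 in turn 3, 1 and 1 passed at 12 h and 1, 1 and 2 at 24 h.

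The scaling also bears on the counts. With the 75th percentile taken over all probes 0 passed at 12 or 24 h. With quantile normalization 4 rose and 3 fell at 12 h and 2 rose and 3 fell at 24 h, where the falls were let-7a, let-7f and miR-96, and in the authors' deposited value table, tested in the same way, 1 rose and 2 fell at 12 h and 2 rose and 2 fell at 24 h. MiR-20a kept its sign in all of these.

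**Figure D1:**
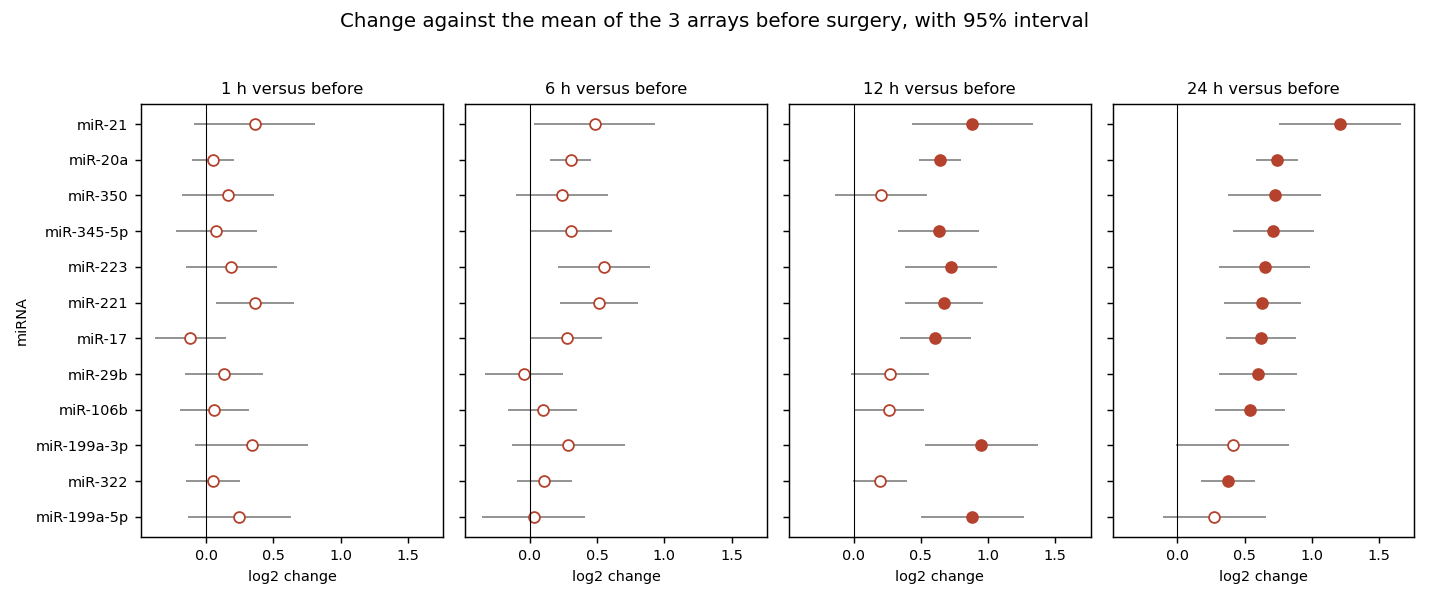
Log2 change of scaled signal (x axis) of the 12 miRNAs with a measured level before PHx that passed at any time (y axis), at 1, 6, 12 and 24 h after PHx against the mean of the 3 EtOH arrays before PHx. Points are the fitted changes, filled where the adjusted p was under 0.05, and lines are 95% intervals of the limma fit. No filled point appears at 1 or 6 h, and all filled points lie to the right of 0.

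The most stable riser was miR-20a, of the miR-17-92 cluster. Its signal was 126, 122 and 122.5 on the 3 arrays before PHx, and 128, 152, 193 and 206 at 1, 6, 12 and 24 h. All 4 arrays after PHx lay above all 3 before, each later time was higher than the one before it, and the 1 h array exceeded the highest array before PHx by little. The rise was 1.56-fold at 12 h (log2 0.64, SE 0.0643, limma adjusted p 0.00502) and 1.67-fold at 24 h (0.74, adjusted p 0.0021), while the 1.23-fold difference at 6 h did not pass (adjusted p 0.0916). Without the 2 floored miRNAs the limma adjusted p of miR-20a was weaker, at 0.031 at 12 h and 0.0117 at 24 h. Leaving out any 1 of the 15 arrays kept its call wherever the comparison could still be made. This held in 14 of 14 refits at 12 h and 14 of 14 at 24 h, and no other call at these times was kept in all of them. Only refits without 1 of the 3 EtOH or 4 CHO arrays before PHx could lose the call, because every other array is alone in its group. Under the other settings, such as other scalings and blocks, miR-20a passed in 8 of 13 at 12 h (log2 0.37 to 1.11). At 24 h it passed in 7 of 12 (0.45 to 1.32). In the CHO livers the same miRNA stood at 185.5 to 196 before PHx, so the ethanol-fed pools came level with that range only at 12 h.

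The seed partner miR-17 followed miR-20a. It gave 48.4, 49.9 and 58.0 before PHx and 47.9, 62.8, 79.1 and 79.9 at the 4 times, with the 12 and 24 h arrays above all arrays before PHx and the 1 h array below them. It rose 1.52-fold at 12 h (log2 0.61, SE 0.109, adjusted p 0.0348) and 1.54-fold at 24 h (0.62, adjusted p 0.0341). MiR-106b, from the paralogous cluster in Mcm7, passed at 24 h but not at 12 h. It measured 30.4, 32.1 and 29.8 before PHx and 32.05, 32.8, 36.9 and 44.7 after it, and rose 1.45-fold at 24 h (log2 0.54, SE 0.107, adjusted p 0.035), with a difference of 0.26 at 12 h (adjusted p 0.405). With normexp on a single background value for each array, in place of the local background, its 24 h difference had the opposite sign (-0.070). That setting also adds an offset of 50 to the signals before scaling. MiR-93, of the same transcript and seed, read 54.5 to 64.6 before PHx and 60.6, 69.0, 73.4 and 71.7 after it and did not pass at any time.

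Of the 13 names in the list of miR-17-92 and its paralogous clusters, 12 are on the array and 8 were tested. This and the other lists were chosen with earlier results of these data known. Their shares and medians beside those of all tested miRNAs are therefore descriptions only. MiR-17-3p, miR-18a, miR-20b-5p and miR-363 were not detected on any EtOH array. At 12 h 2 of the 8 rose, against 5.97% of all tested miRNAs, with a median log2 change of 0.34 against 0.07 over all. At 24 h 3 of 8 rose, against 7.46%, with a median of 0.58 against 0.01. The median at 24 h lay at 0.43 with quantile normalization, 0.72 with the percentile taken over all probes and 1.16 without scaling, where the median of all miRNAs moved to 0.573. At 1 and 6 h none of the 8 passed, with medians of 0.06 and 0.26. The seed pair of miR-19 was high at 24 h and passed there without the 2 floored miRNAs, but not with them: miR-19b had 148, 136, 119 before PHx and 141, 141, 169 and 233 after it (log2 0.80 at 24 h, SE 0.192, adjusted p 0.0613). MiR-19a, detected on 1 of 3 arrays before PHx and on 2 of 4 after it, reached 14.6 at 12 h and 22.3 at 24 h (0.97, adjusted p 0.093). MiR-92a, which the same primary transcript carries, differed by -0.24 at 24 h (adjusted p 0.456), and was the 1 tested member of the list with a difference below 0 at that time.

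**Figure D2:**
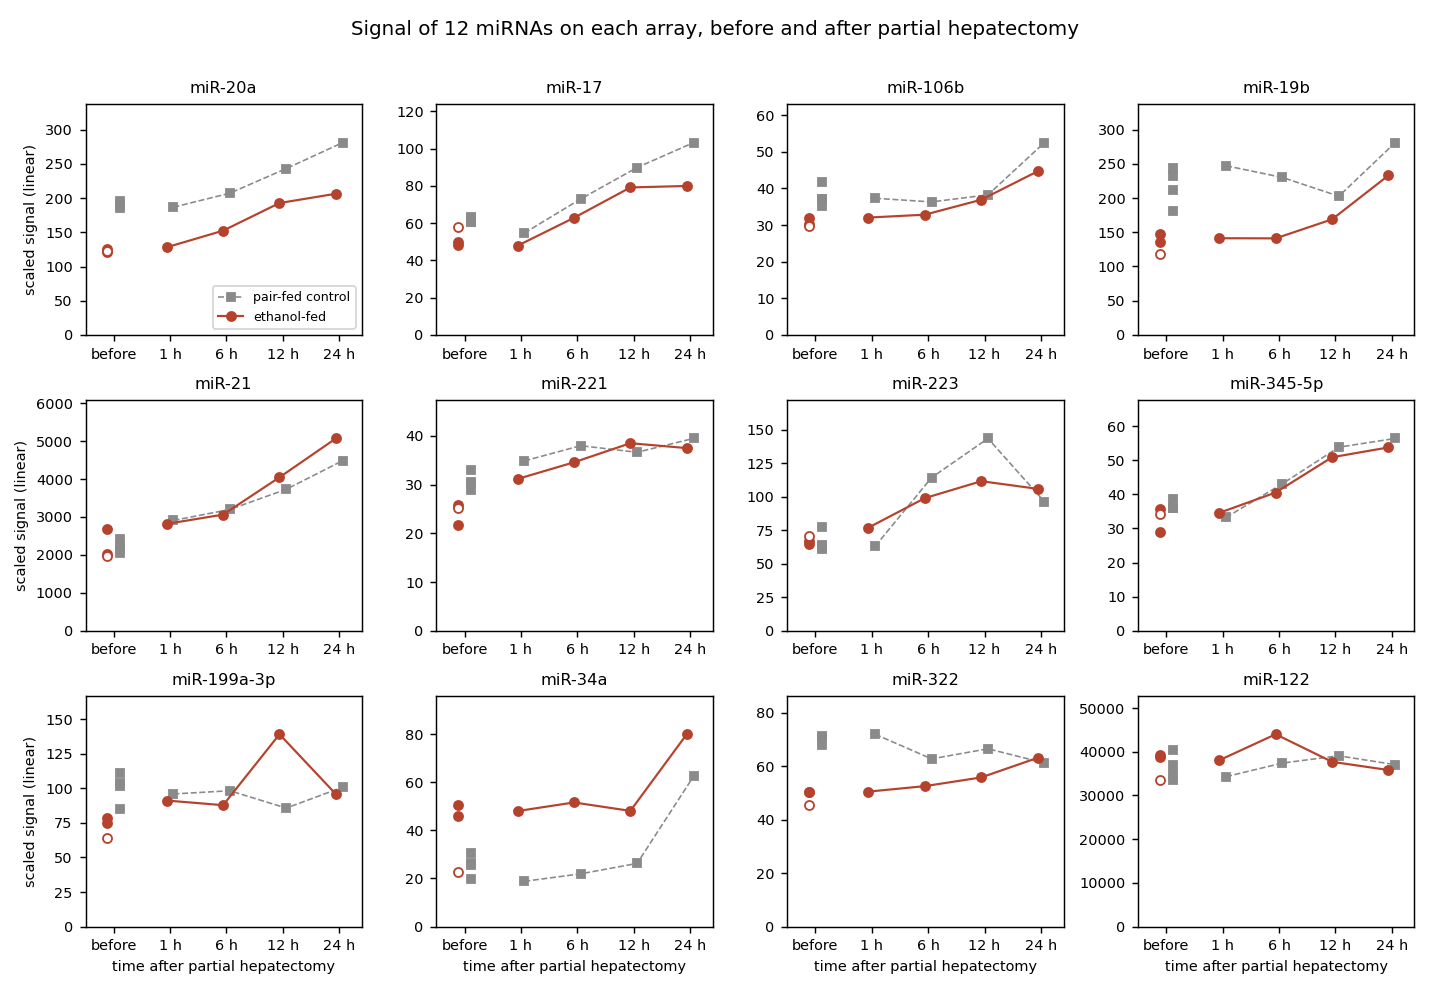
Scaled signal on a linear axis (y) of 12 miRNAs on each array before PHx and at 1, 6, 12 and 24 h (x). Circles are EtOH arrays, with the array before PHx of the 12 h pool drawn open, squares are CHO arrays, and lines join the single arrays after PHx. MiR-20a climbs from 128 at 1 h to 206 at 24 h below the CHO line throughout, and miR-199a-3p stands out at 12 h, at 139.

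MiR-21, which is known to rise in regenerating liver, showed the largest called change. Before PHx it read 2676, 2016 and 1960, and after it 2818, 3062, 4046 and 5071. No array after PHx overlapped those before, although the 1 h array was close to its own pool's 2676. The rise was 1.84-fold at 12 h (log2 0.88, SE 0.188, adjusted p 0.0464) and 2.31-fold at 24 h (1.21, adjusted p 0.0338), and the values at 1 and 6 h, 1.28-fold and 1.39-fold, did not pass (adjusted p 0.951 and 0.406). Without the array before PHx of the 12 h pool neither passed, at adjusted p 0.0916 and 0.0563. MiR-221, a repressor of the cell cycle inhibitors p27 and p57, read above all arrays before PHx at 1 and 6 h, without passing. From 12 h on it was about level. Its signal was 25.8, 21.8 and 25.2 before PHx and 31.2, 34.6, 38.5 and 37.5 after it, with no overlap. It rose 1.59-fold at 12 h (log2 0.67, SE 0.12, adjusted p 0.0348) and 1.55-fold at 24 h (0.63, adjusted p 0.035), and was 1.43-fold higher at 6 h without passing (adjusted p 0.097). Against the 1 array before PHx of its own pool its 12 h change was 0.61 and did not pass. With normexp on a single background value for each array, the difference at 1 h and those at 12 and 24 h (-0.016 and -0.10) had the opposite sign. Its cluster partner miR-222 was not detected on any EtOH array.

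Of the 11 names in the list of regeneration-linked miRNAs, 7 were tested, and miR-21 and miR-221 were the 2 that rose at 12 h and at 24 h. This list too was chosen with earlier results of these data known. Over all tested miRNAs 5.97% rose at 12 h and 7.46% at 24 h. The list's median was 0.10 at 12 h and -0.02 at 24 h, against 0.07 and 0.01 over all tested miRNAs. MiR-34a, induced by p53, gave 50.6, 45.9 and 22.5 before PHx and 48.0, 51.6, 48.1 and 80.0 after it. Its 24 h array was the highest of the 7, but the low array before PHx is the one with the wide spot spread, and the 2.14-fold difference did not pass (log2 1.097, SE 0.463, adjusted p 0.319). MiR-26a, a growth-restraining miRNA, stayed between 1731 and 1983 on all 7 arrays, and miR-378, encoded in Ppargc1b, between 413 and 505. MiR-203 read 33.1 to 36.0 before and 30.8 to 34.1 after PHx.

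MiR-223, made mainly by neutrophils and other myeloid cells, was higher in every pool after PHx. It gave 67.3, 64.6 and 70.8 before PHx and 76.9, 99.0, 112 and 106 after it, without overlap. The rise was 1.65-fold at 12 h (log2 0.72, SE 0.141, adjusted p 0.0369) and 1.57-fold at 24 h (0.65, adjusted p 0.0465), and 1.47-fold at 6 h without passing (adjusted p 0.125). Against the 1 array before PHx of its own pool the 12 h change was 0.66 and did not pass. The other 3 tested leukocyte markers did not pass at any time: miR-142-3p read 17.7 to 26.1 before and 20.4 to 30.0 after PHx, miR-146a 152 to 174 and 157 to 194, and miR-150 43.7 to 58.2 and 43.2 to 50.1. MiR-142-5p was not detected on any EtOH array. The summed signal of the 4 tested markers was 294 to 311 before PHx and 329 to 364 after it. The part of a change in myeloid cell number in the miR-223 rise was not tested.

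MiR-345-5p had 35.8, 28.9 and 34.1 before PHx and 34.6, 40.5, 50.9 and 53.7 after it. It was within the earlier range at 1 h and above it from 6 h on. It rose 1.55-fold at 12 h (log2 0.63, SE 0.126, adjusted p 0.0369) and 1.64-fold at 24 h (0.71, adjusted p 0.0341). Its position, chr6:133518418-133518438, is outside the clusters named above.

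Both arms of miR-199a, enriched in stellate cells and fibroblasts, were high on the 12 h array. MiR-199a-3p read 74.9, 78.4 and 64.0 before PHx and 91.2, 87.9, 139 and 95.8 after it, and miR-199a-5p read 35.3, 39.1 and 40.9 and then 45.6, 39.1, 70.7 and 46.4. The 12 h array was above all others for both arms, while at 24 h both were back near the 1 h values. The 12 h rise was 1.93-fold for miR-199a-3p (log2 0.95, SE 0.175) and 1.84-fold for miR-199a-5p (0.88, SE 0.16), each with an adjusted p of 0.0348, and the 24 h differences of 0.41 and 0.27 did not pass. Against the 1 array before PHx of the same pool the 12 h changes were 1.12 and 0.79 and did not pass. MiR-214, transcribed with miR-199a from the opposite strand of Dnm3, read 11.3, 13.0 and 14.3 before PHx, where it was detected on 1 of 3 arrays, and 15.01, 17.2, 19.2 and 12.3 after it, and did not pass at 12 h (0.58, adjusted p 0.1). All 8 stellate and mesenchymal markers were tested. At 12 h 2 of 8 rose, against 5.97% of all tested miRNAs, and the list's median was 0.16 against 0.07 over all. At 24 h none rose, against 7.46% of all tested, and the median was -0.02. The other members that define these cells, miR-143 (333 to 375 before, 308 to 404 after) and miR-145 (from 61.3 before PHx, and 52.5 to 78.7 after it), overlapped before and after PHx. The summed signal of the 8 was 1633 to 1824 before PHx and 1877 at 12 h. Whether the share of stellate cells in the 12 h pool had a part in this was not tested.

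3 further miRNAs rose at 24 h. MiR-29b, which targets collagen transcripts, read 86.2, 71.5 and 76.7 before PHx and 85.4, 75.6, 94.2 and 118 after it, so that the 12 and 24 h arrays exceeded the range before PHx. It rose 1.51-fold at 24 h (log2 0.60, SE 0.121, adjusted p 0.035), whereas its relatives miR-29a and miR-29c did not pass (1765 and 729 at 24 h, within 1725 to 1993 and 628 to 802 before PHx). MiR-350 gave 12.3, 14.5 and 12.4 before PHx and 14.6, 15.4, 14.99 and 21.5 after it. It was detected on 1 of 3 arrays before PHx and rose 1.65-fold at 24 h (0.72, SE 0.143, adjusted p 0.035). MiR-322, which shares its seed with the miR-15 and miR-16 family, had 50.5, 50.4 and 45.5 before PHx and 50.5, 52.6, 55.8 and 63.2 after it and rose 1.29-fold (0.37, SE 0.0837, adjusted p 0.0487, or 0.135 without the 2 floored miRNAs). Under the normexp setting named above miR-350 (-0.23) and miR-322 (-0.057) had the opposite sign at 24 h. Of the 5 tested members of the miR-15 family miR-322 was the 1 that rose, against 7.46% of all tested miRNAs. The genomic neighbour of miR-322, miR-450a, read 15.51 to 19.7 before and 21.4 at 24 h without passing.

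Lower values at 24 h did not pass but are given because no fall was called. MiR-505 read 16.7, 13.6 and 13.3 before PHx and 16.4, 17.0, 12.5 and 10.2 after it (log2 -0.50 at 24 h, SE 0.139, adjusted p 0.105). MiR-196c and miR-196a, both encoded within Hox clusters, varied between pools before PHx. In CHO they read 13.7 to 40.9 and 12.8 to 27.7 there. In EtOH they read 20.8 to 42.0 and 13.7 to 29.5, each highest on the array with the wide spot spread. In EtOH both were detected on all 3 arrays before PHx and on the 1, 6 and 12 h arrays, but not on the 24 h array. That pool has no array before PHx here and is set against the mean of the 3, so pool and time cannot be told apart. The 24 h level was at least 2.74-fold lower for miR-196c and at least 2.0-fold lower for miR-196a (adjusted p 0.356 and 0.439), taken against the lowest signal well above background. MiR-96 read 12.2, 14.9 and 17.9 before PHx, 16.3 at 6 h and 17.0 at 12 h. At 1 and 24 h its signal was at the floor, although its spots counted as detected there (log2 -0.62 at both, adjusted p 0.928 and 0.135).

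In the first hours the changes were small. At 1 h the median of all 134 log2 changes was 0.04 and no miRNA passed. MiR-466b read 12.5, 15.9 and 12.2 before PHx and 22.0, 29.8, 20.4 and 16.3 after it, above all arrays before PHx at every time and highest at 6 h. Its differences of 0.71 at 1 h and 1.15 at 6 h (SE 0.234) had adjusted p of 0.928 and 0.0916. MiR-872 followed the same course, at 10.46, 12.5 and 9.61 before PHx and 13.3, 20.8, 15.2 and 13.0 after it (0.94 at 6 h, SE 0.213, adjusted p 0.097). MiR-652 read 34.9, 40.5 and 40.3 before PHx and 41.6, 55.8, 45.1 and 35.1 after it (0.54 at 6 h, adjusted p 0.125). These 3 thus had their highest array at 6 h, earlier than the miR-17 family, without passing the test. The 2 that passed at 6 h, miR-30c-1* and miR-672, read 13.1 and 12.7 at 6 h against the floor before PHx. Their levels at 6 h are given as at least 1.16-fold and at least 1.12-fold higher, with no test. At 12 and 24 h both were at the floor again.

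Averaged over the 4 times, 5 miRNAs rose and 0 fell, 3.73% of those tested (at an unadjusted p under 0.05, 22 were higher and 0 lower). MiR-21 rose by a log2 of 0.73 (SE 0.124, adjusted p 0.0348), miR-221 by 0.55 (adjusted p 0.023), miR-223 by 0.53 (adjusted p 0.0348), miR-20a by 0.43 (SE 0.0425, adjusted p 0.00438) and miR-345-5p by 0.43 (adjusted p 0.044). With the pool as a block and 1 change per diet, 0 of these passed, with adjusted p from 0.0663 for miR-221 to 0.436 for miR-345-5p. Without the array before PHx of the 12 h pool miR-20a, miR-221 and miR-17 passed, and without the 2 floored miRNAs the same 5 and miR-466b (adjusted p 0.0409). In that last fit miR-20a, miR-21 and miR-221 each had an adjusted p of 0.0149. In all, 11 of 134 miRNAs (8.21%) had all 4 arrays after PHx above all 3 before, and 0 had all 4 below. They were miR-20a, miR-21, miR-221, miR-223, miR-199a-3p, miR-350, miR-200b, miR-466b, miR-497, miR-7a and miR-872.

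The late arrays, 12 and 24 h, were also set against the early ones, 1 and 6 h. MiR-20a rose, by a log2 of 0.51 (SE 0.0557, adjusted p 0.0081), as 1 of 134 or 0.746%, and 0 fell. At an unadjusted p under 0.05, 16 were higher and 7 lower. MiR-17 (0.54, adjusted p 0.0692), miR-345-5p (0.48, adjusted p 0.0997), miR-21 (0.62, adjusted p 0.125) and miR-19a (0.91, adjusted p 0.111) did not pass, nor did miR-505 at -0.56 (adjusted p 0.0997). Early and late arrays lie on different slides: with the slide as a block the difference of miR-20a was 0.55 (adjusted p 0.0652). Without the 2 floored miRNAs its adjusted p was 0.0801. A narrower contrast used own-pool changes, at 12 h against the mean of 1 and 6 h, without the 24 h array. In it the difference of miR-20a was 0.48 and did not pass. A signal that was higher at each later time from 1 to 24 h was found for 11 miRNAs (8.21%), among them miR-20a, miR-17, miR-106b, miR-21, miR-322, miR-345-5p, miR-374 and miR-425. It was lower at each later time for 5 (3.73%), namely miR-150, miR-152, miR-27b, miR-378* and miR-451.

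The 3 pools that were measured before and after PHx give each animal set's own change. MiR-20a changed by a log2 of 0.02 in the 1 h pool, 0.32 in the 6 h pool and 0.65 in the 12 h pool, close to its changes against the common mean of 0.05, 0.30 and 0.64. For miR-21 the own-pool changes of 0.07, 0.60 and 1.05 spread further than the 0.36, 0.48 and 0.88 against the mean, because its 1 h pool started high. MiR-221 (0.27, 0.67 and 0.61), miR-223 (0.19, 0.62 and 0.66) and miR-466b (0.82, 0.90 and 0.75) were higher after PHx in all 3 pools. MiR-214 read higher after PHx in all 3 pools, but only 1 of its 3 arrays before PHx was detected, so no size is given. MiR-34a differed by -0.07, 0.17 and 1.096, and the last value rests on the array with the wide spot spread. Over all tested miRNAs, 36 (26.9%) were higher after PHx in 3 of 3 pools and 11 (8.21%) were lower in 3 of 3. With 3 pairs at 3 different times these are not replicates of one time, and they were not tested as such.

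**Figure D3:**
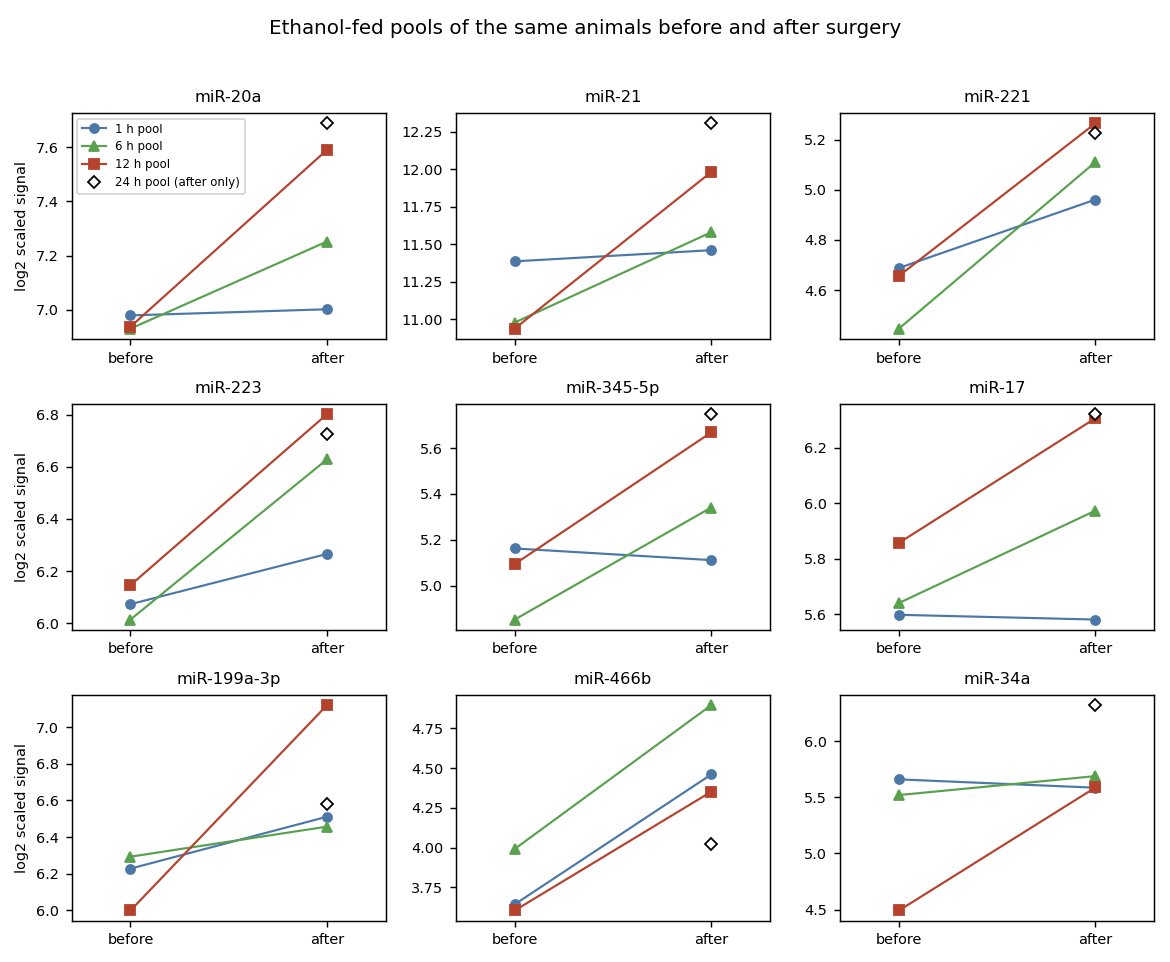
Log2 scaled signal (y) before and after PHx (x) for 9 miRNAs in the EtOH pools. Lines join the 2 arrays of the same 4 animals in the 1 h, 6 h and 12 h pools, and diamonds show the 24 h pool, which has an array after PHx only. Each panel has its own y range. For miR-20a the 3 starting points nearly coincide and the slope grows with time, whereas for miR-34a the 12 h pool starts far below the other 2.

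Set against the CHO livers, the response of EtOH livers did not differ detectably over the mean of the 4 times for the miRNAs that rose at 12 or 24 h. The difference of the mean responses (EtOH minus CHO) was 0.19 for miR-20a (95% interval 0.05 to 0.33, adjusted p 0.282), 0.02 for miR-17 (-0.22 to 0.25), 0.06 for miR-21 (-0.35 to 0.46), 0.26 for miR-221 (0.00 to 0.52, adjusted p 0.528) and -0.07 for miR-223 (-0.38 to 0.24). These intervals are wide beside the responses, so the data do not show that the responses were alike. MiR-322 differed by 0.28 (0.10 to 0.46, adjusted p 0.265): it was 67.8 to 71.4 in CHO before PHx and 61.2 at 24 h, against 45.5 to 50.5 and 63.2 in EtOH. MiR-199a-3p lay between 84.9 and 112 in CHO before PHx and was 85.8 at 12 h, against 139 in EtOH, and the difference of the 12 h responses did not pass (log2 1.17, SE 0.243, adjusted p 0.0546), but did without the 2 floored miRNAs (adjusted p 0.047). Of the 134 tested, 2 passed for the mean response (1.49%), both of them the miRNAs called at 6 h, miR-672 and miR-30c-1*, whose p-values have no meaning here either. Without them 1 of 132 passed, miR-125a-3p (-2.003, adjusted p 0.0384). At single times 0 passed at 1, 6 and 24 h (2, 2 and 4 at an unadjusted p under 0.05) and 5 at 12 h (3.73%), and all 5 rest on high values of the CHO 12 h array, which resembles the other arrays least. On that array miR-125a-3p read 492.5, miR-188 166.5 and miR-466b 87.5, against 12.9, 23.1 and 20.4 on the EtOH 12 h array. Across the 134 miRNAs the changes in the EtOH and CHO courses correlated with a Pearson r of 0.004 at 1 h, 0.379 at 6 h, -0.017 at 12 h and 0.537 at 24 h. This is a description across miRNAs, which are not independent replicates, and each course uses its own arrays.

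**Figure D4:**
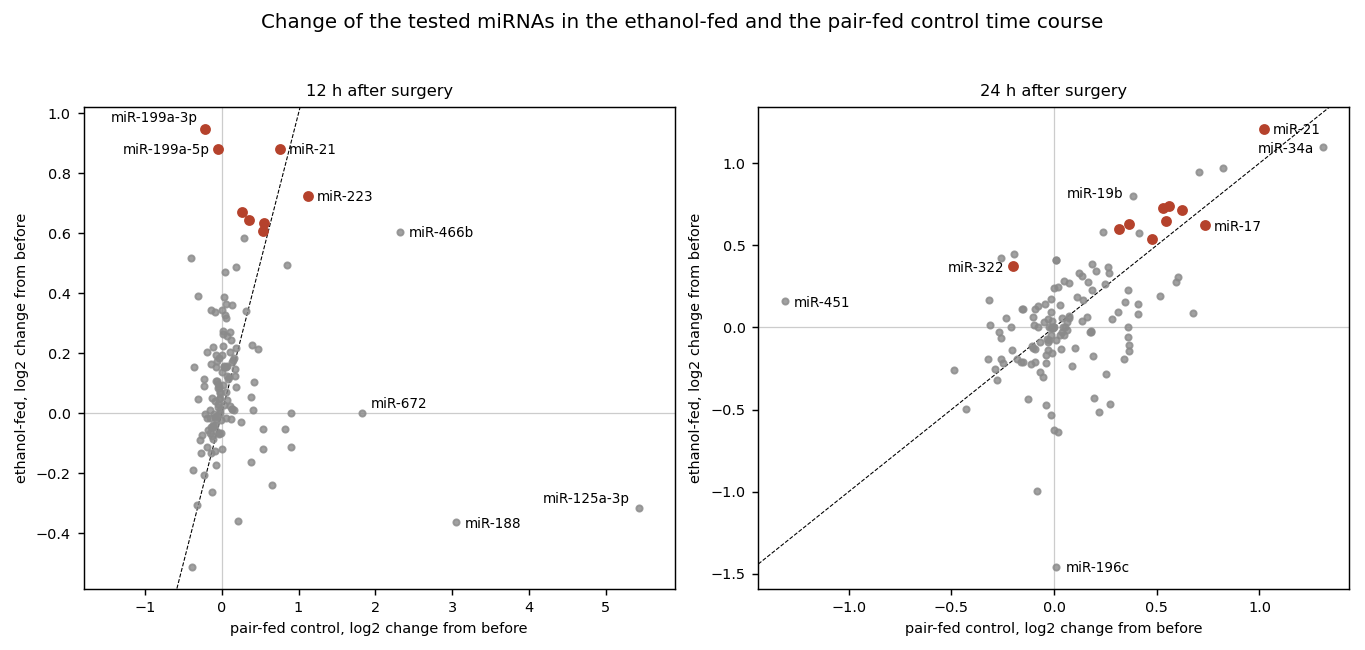
Log2 change from before PHx in the CHO course (x) and the EtOH course (y) for the 134 tested miRNAs at 12 h (left) and 24 h (right), 1 point per miRNA, filled red where the change passed in EtOH. The dashed line marks equal change. At 12 h miR-125a-3p and miR-188 lie far to the right through the CHO array, and at 24 h miR-21 and miR-34a are high on both axes.

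In the remaining lists no member passed at any time. All 9 tested hepatocyte-enriched miRNAs, among them miR-122, miR-192 (1491 to 1778 before, 1544 to 1709 after) and miR-194, did not pass at any time, with medians between -0.03 and 0.03. The 8 let-7 members, the 5 miR-30 members, miR-103 and miR-107, and the 5 members of the miR-23, miR-24 and miR-27 clusters did not pass at any time, with medians between -0.19 and 0.21. With quantile normalization let-7a and let-7f passed as lower at 12 and 24 h, so the direction given for let-7 depends on the scaling. Set against the 1 array before PHx of its own pool, miR-30a passed as lower at 12 h. Of the epithelial markers miR-200a and miR-200b read 17.6 to 20.8 and 20.7 to 28.3 before PHx and 18.3 to 24.9 and 29.9 to 34.8 after it, without passing, and miR-200c and miR-141 were not detected on any EtOH array. The median of the 3 tested epithelial markers was 0.39 at 12 h and 0.16 at 24 h, above the 0.07 and 0.01 over all miRNAs. Of the endothelial pair, miR-126 read 1034 to 1103 before and 1005 to 1192 after PHx. MiR-126* read 38.3, 30.1 and 30.8 before PHx and 34.6, 27.4, 36.8 and 43.7 after it, so that the 24 h array lay above all others (log2 0.41, SE 0.146, adjusted p 0.208), and the median of the pair at 24 h was 0.29. The erythroid miR-451 read 618, 890 and 841 before PHx and 1197, 914, 873 and 863 after it, and its companion miR-144 was detected on 0 of 3 arrays before PHx and 3 of 4 after it, at 13.1 or less. The median of these 2 was 0.51 at 1 h, against 0.04 over all miRNAs, and 0.09 to 0.11 later. Neither passed, and the part of blood left in the tissue was not tested. Of the ethanol-linked list, miR-34a and miR-212 were tested and did not pass. Their median at 24 h was 0.58, between 1.097 for miR-34a and 0.06 for miR-212.

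**Figure D5:**
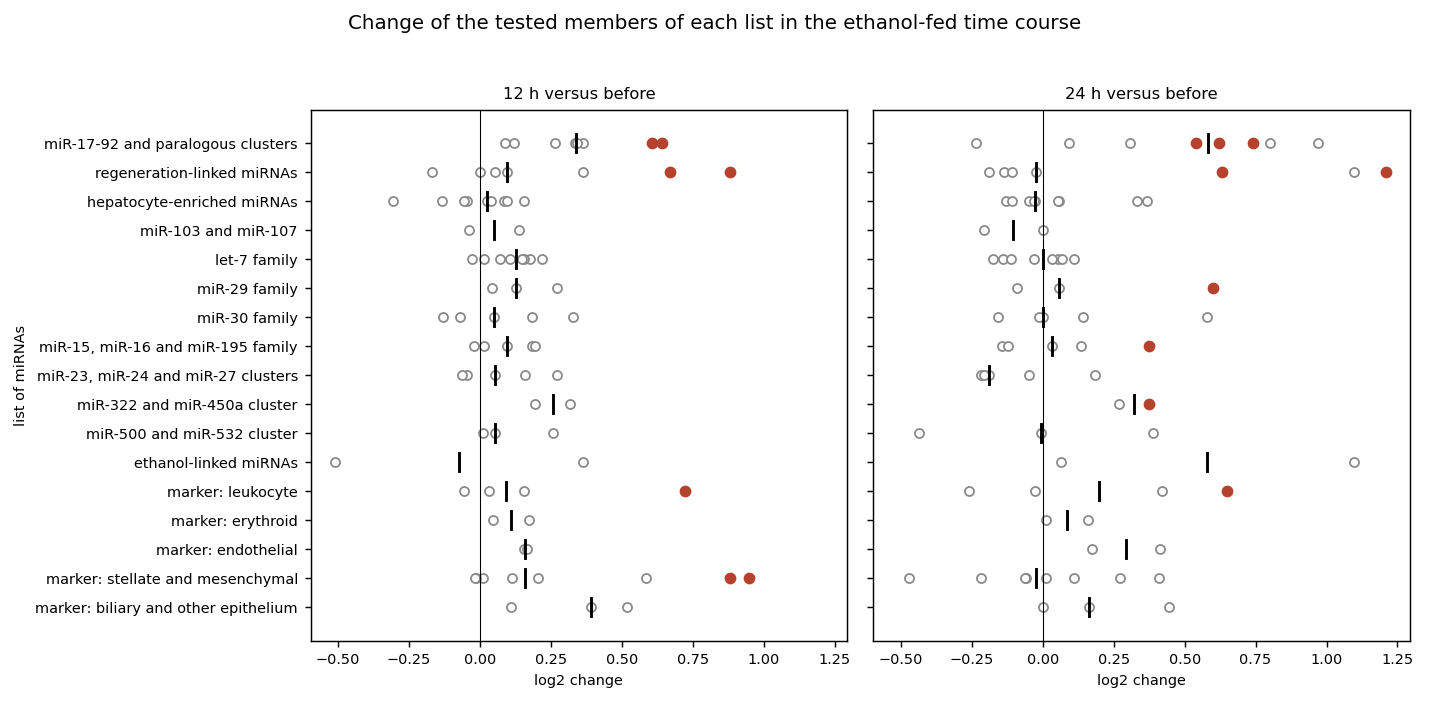
Log2 change (x) of each tested member of 17 lists of miRNAs (y) at 12 h (left) and 24 h (right) against the mean of the 3 EtOH arrays before PHx. Filled points passed at an adjusted p under 0.05, open points did not, and black bars are list medians. The miR-17-92 list has its median at 0.34 and then 0.58, while the hepatocyte list stays at 0.03 and then -0.03.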

How the data were processed

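The deposited scanner files hold spot intensity on a linear scale for 1 dye, less the local background. This was done in Agilent Feature Extraction, per the file headers version 10.5.1.1 and, in the submitters' processing notes, version 10.7.3.1. The authors' deposited value table, on a log2 scale, served as an alternative, and the way it was made is not given in the sources used here. The medians of its columns ran from 0.106 to 1.097.

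Outlier spots were left out (2503, 2.38%). Spots were averaged per probe, and detection required that a share of 0.5 or more of a probe's spots exceed background well, by the scanner software's own mark. Signals were scaled so that the 75th percentile of the 185 probes with detection on all 15 arrays was equal, floored at 9.61 and put on the log2 scale. The brightest probe stood for a miRNA. Other detected probes had the same sign for 8 of 8 miRNAs called at 12 h and 9 of 9 at 24 h. Contrasts came from limma 3.58.1 (R 4.3.3) with 10 groups of diet and time, 5 residual degrees of freedom and Benjamini-Hochberg adjustment. The number of arrays limits precision (median SE 0.165 at a single time). In simulated data for the 24 h comparison (134 miRNAs), 20 of 20 changes of 1.5 log2 units were called, with 2 false calls. Smaller changes were not simulated, and the largest change called at 24 h was 1.21, for miR-21. Every simulated miRNA had the same SD, so the recovery of changes under the unequal spread of the real data was not measured.

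Named miRNAs are, per comparison, up to 12 called in each direction, else the lowest p-values up to 10, with 11 set names and list members. Those named for their order over time, detection or CHO 12 h level were chosen after their values were seen. The members and lists were chosen with earlier results of these data known.

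Same-pool arrays come from the same animals. Their deviations correlated at 0.375, 0.22 and 0.189 in the 1, 6 and 12 h pools, and at -0.213 to -0.017 between different pools. Deviations from a mean of few arrays tend to oppose each other, so the values between different pools are no neutral baseline. The arrays after PHx also differ in time, and these correlations were not tested.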

Additional observations from a re-analysis of the deposited data

Results flagged for a closer look

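The difference between the EtOH and CHO responses, averaged over the 4 times, came out under the threshold for miR-672 (log2 -0.44) and miR-30c-1* (-0.31). Neither rose above the floor on any array before PHx in either diet, so the fit holds no spread for them, their p-values have no meaning, and the differences depend on the floor and are not sizes. In EtOH both read above the floor at 6 h only, at 12.7 and 13.1, while in CHO miR-672 read up to 34.0 and miR-30c-1* up to 17.9, each at 12 h.

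At 12 h the response difference passed for miR-125a-3p (-5.75), miR-188 (-3.41), miR-672 (-1.82), miR-466b (-1.72) and miR-30c-1* (-0.90), with the same limit for miR-672 and miR-30c-1*. Without these 2, miR-125a-3p, miR-188 and miR-466b passed at 12 h, and miR-199a-3p too. For each of the 5 the CHO 12 h array was the highest of all 15 arrays. MiR-125a-3p read 10.49 to 25.8 on the other 14 arrays, and 492.5 on it. The differences were found with 1 array per diet and time, and whether that array differs by its RNA or its handling was not tested.

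Among the 4 CHO arrays before PHx, 1 array stood apart for miR-125a-3p, with a gap to the nearest array of 0.863 of the group's range (10.49, 10.9, 14.01 and 10.6), and 1 for miR-322, with a gap of 0.836 of the range (67.8, 71.4, 70.8 and 71.0). Chance marks about 1 in 20 such groups, and both ranges are small.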

How the results depend on the processing

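For orientation, the counts passing were 0 at 1 h, 2 at 6 h, 8 at 12 h, 10 at 24 h, 5 for the mean over times, 1 for late against early times and 2 for the response difference between diets. With the 75th percentile over all probes, without scaling, and on the EtOH arrays alone (where the comparison exists), 0 passed in these comparisons. With quantile normalization 1 fell at 1 h, 5 passed at 24 h (2 higher, 3 lower) and 5 for late against early times (1 higher, 4 lower). With total signal per miRNA 2 passed at 24 h, 3 for late against early times and 1 for the response difference. In the authors' value table there were 0 calls at 6 h, 3 at 12 h (1 higher, 2 lower), 4 at 24 h (2 higher, 2 lower), 0 for the mean, 4 for late against early times (1 higher, 3 lower) and 0 for the response difference. With normexp and 1 background value per array, chosen after seeing the data, 0 passed at 6 h, 1 at 12 h, 1 at 24 h, 1 for the mean, 0 for late against early times and 1 for the response difference. Without a filter on dim probes 2 passed at 12 h, 1 at 24 h, 4 for late against early times and 10 for the response difference (1 higher, 9 lower). Testing those detected on at least 3 EtOH arrays gave 0 at 6 h, 0 for late against early times and 1 for the response difference. Moderation with a trend and a robust prior gave 0 at 6 h, 8 for the mean and 1 for the response difference, and 2 groups of EtOH arrays gave 0 for the mean. Without the 2 miRNAs at the floor on every array before PHx, chosen after seeing the data, 0 passed at 6 h, 0 for late against early times and 1 for the response difference.

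With the slide as a block 0 passed at 6 h, 1 at 12 h, 2 at 24 h and 0 for late against early times. Within slide 1, 0 passed at 6 h, for the mean and for the response difference, and within slide 2, 0 at 12 h, at 24 h, for the mean, for the response difference and for the response difference at 12 h. Set against the 1 array before PHx of the same animals, 0 passed at 6 h and 7 at 12 h. For late against early times, there without the 24 h array, 0 passed. With the pool as a block and 1 change per diet, over the pools with both arrays, 0 passed for the mean and 0 for the response difference.

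Leaving out 1 array at a time gave 0 to 3 calls at 6 h, 1 to 8 at 12 h, 1 to 11 at 24 h, 1 to 6 for the mean, 1 to 4 for late against early times, 0 to 3 for the response difference and 3 to 5 for that at 12 h. The counts at 12 h were 2 without EtOH before PHx replicate 1, 1 without its replicate 2 and 2 without its replicate 3, and 3, 1, 3 and 1 without CHO before PHx replicates 1 to 4. At 24 h they were 11, 5 and 2, and 1, 1, 10 and 2, without the same arrays. Without any 1 of the other arrays they were 8 and 10. The mean over times gave 1 call when the EtOH 12 h array was left out and 2 when the EtOH 24 h array was, and the response difference gave 0 without either 12 h array.

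For the response difference at single times, without a filter on dim probes 1 passed at 1 h, 3 at 6 h, 12 at 12 h (2 higher, 10 lower) and 1 at 24 h. With quantile normalization 1 passed at 6 h and 9 at 12 h (4 higher, 5 lower), and with normexp and 1 background value 3 at 12 h.

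Signs reversed mainly with normexp and 1 background value per array, which moved the median of all miRNAs to between -0.186 and -0.032 at single times. At 1 h these were miR-466b (-0.082), miR-221 (-0.077), miR-200a (-0.11), miR-342-3p (-0.19), miR-200b (-0.073) and miR-7a (-0.11). At 12 h they were miR-221 (-0.016), miR-214 (-0.20) and miR-200a (-0.17), and at 24 h miR-350 (-0.23), miR-221 (-0.10), miR-106b (-0.070) and miR-322 (-0.057). For the mean they were miR-221 (-0.028), miR-345-5p (-0.016), miR-466b (-0.12), miR-872 (-0.17) and miR-350 (-0.21), and for the response difference miR-322 (-0.077), miR-200b (-0.082) and miR-200a (-0.20). Other reversals, for the response difference, were miR-672 (0.064) and miR-188 (0.050) within slide 1 and miR-30c-1* (0.24) in the authors' value table. Leaving out 1 array at a time gave miR-672 between -0.68 and 0.025. The cause of these reversals was not tested. The normexp setting added an offset of 50 to the signals before scaling, and the part of that offset was not tested either. MiR-20a kept its sign in all settings run.

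Normexp with the local background, as first listed, was not run to a result, because its fitted background mean was -72.7 on EtOH before PHx replicate 3 and -578 on the CHO 24 h array. With 1 array per time and pooled RNA, the spread between animals was not measured. MiRNAs near the floor, such as miR-350, miR-872 and miR-19a, have compressed changes.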
